A study of Mus musculus with 2 samples.

Results

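The Notch pathway genes described here are 10 genes of 24421 in the deposited table of counts, chosen by name as 4 receptors (Notch1, Notch2, Notch3 and Notch4), 4 ligands (Jag1, Jag2, Dll1 and Dll4) and 2 targets (Hes1 and Hey1). The RNA came from back skin, taken in its whole thickness from wild type C57BL6/J mice, with 1 library of skin stretched for 5 days at 33% strain, the strain at the start (stretched skin), and 1 library of skin left unstretched over the same 5 days (control skin). The methods give the animals of the study as female and 8 weeks of age, with hair in the resting phase, and describe a device that is glued to the back and lengthened daily. Whether RNA of several animals was pooled is not given in the sources used here. The control library held 14152379 counts and the stretched library 11648655. With 1 library per condition no difference has a replicate check, no test across samples was possible, and every interval below covers counting error only. In whole skin, fewer cells of a type and less RNA per cell cannot be told apart.

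Notch proteins are receptors on the cell surface that are activated by Jagged and Delta ligands on neighbouring cells. Ligand binding leads to cleavage of the receptor by ADAM proteases and gamma-secretase, and the freed intracellular part enters the nucleus, where it binds RBPJ and Mastermind proteins and switches on genes such as those of the Hes and Hey families. In skin the pathway is known for its part in the differentiation of suprabasal keratinocytes, in the maturation of the hair follicle and in blood vessels.

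All 10 genes had a lower CPM (the count scaled to the same total in each library) in stretched skin, although the sign of Notch4 turned with 3 of the other scalings tried. The background was 61.5% of the 16255 genes with more than 3 counts in 1 library or both and 64.1% of the 12740 genes whose 2 libraries together held 100 counts or more. On the log2 scale the 10 Notch genes had a median fold change of -0.51 (range -1.07 to -0.06), and the median of all 16255 genes was -0.12. The exact 95% counting interval lay wholly below 0 for 8 of the 10, against 33.5% of all genes above 3 counts and 40.2% of those with at least 100 counts. The CPM was lower by at least 1.5-fold for 4 of them (Notch1, Jag1, Dll1 and Hes1), against 14.1% and 11.7% of the same sets of genes. With the other scalings Hes1 (-0.51 to -0.56 on the log2 scale) did not reach 1.5-fold, which left 3. The shares of all genes at 1.5-fold are given for scaling by library total only. None was higher by that factor, against 12.3% and 8.02%. A rule adapted from the study's methods asked for a product of the FPKM values (EV, here with 1 added to each) above 10. It also asked for a change of 2-fold or more either way. The study took its FPKM from Cufflinks, and here FPKM was computed from the counts. Of the 10, 7 passed the filter and 1, Jag1, was called lower, against 2.43% of the 10908 genes that passed. None was called higher, against 2.61%. With nothing added to the FPKM, Notch1 and Jag1 were called lower, against 2.85% of the 9681 genes that passed. The call of Jag1 lies at the threshold and was lost with each of the 4 other scalings tried (TMM, median of ratios, upper quartile and totals without the top 50 genes). The summed count of the 10 genes was 14372 in the control and 7483 in the stretched library, which is a log2 fold change of -0.66 (interval -0.70 to -0.62).

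**Figure D1:**
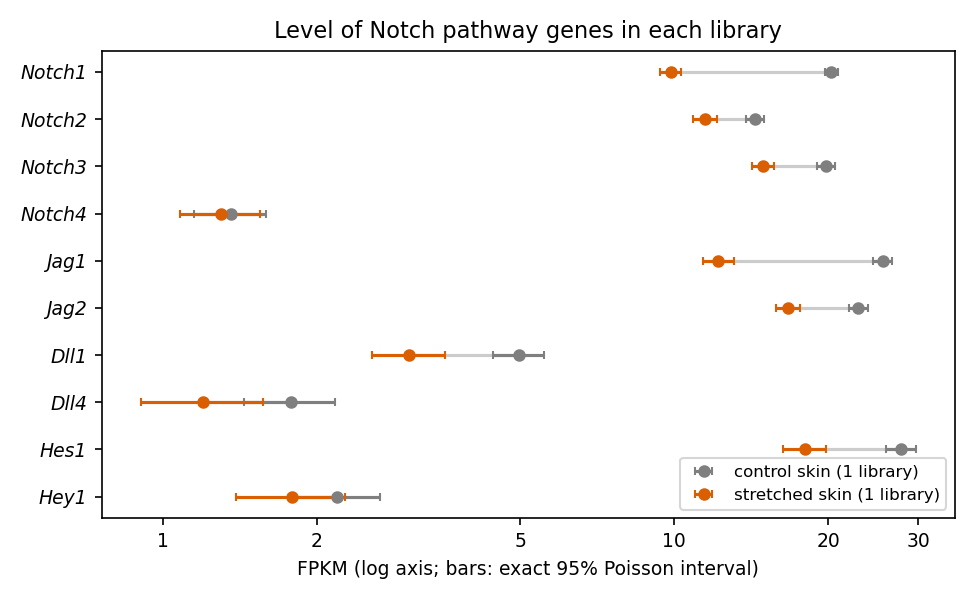
Level of each of the 10 genes in control skin (grey) and stretched skin (orange), 1 library each, as FPKM on a log axis, with exact 95% Poisson intervals of the count as bars. The orange point lies to the left for every gene, and the bars overlap for Notch4, Dll4 and Hey1, whose FPKM was below 3 in both libraries.

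Levels were compared between genes as FPKM, the CPM divided by the length of the gene's exons in kilobases. In control skin Hes1 stood first at 27.8 FPKM (Poisson interval 25.9 to 29.7), followed by Jag1 at 25.6 and Jag2 at 22.9. The receptors came next, with Notch1 at 20.3, Notch3 at 19.8 and Notch2 at 14.4 FPKM. Dll1 (4.97), Hey1 (2.19), Dll4 (1.78) and Notch4 (1.36) formed the lower end of the order. Neighbours whose intervals overlapped were Hes1 and Jag1, Notch1 and Notch3, Hey1 and Dll4, and Dll4 and Notch4. In stretched skin Hes1 was still first at 18.0 FPKM, but Jag2 (16.7) and Notch3 (14.9) stood above Jag1 (12.2), and Notch2 (11.5) above Notch1 (9.84). The order of the receptors depends on the gene length used. Dll1 (3.03), Hey1 (1.79), Notch4 (1.30) and Dll4 (1.20) were again the lowest. The overlapping neighbours in stretched skin were Hes1 and Jag2, Jag1 and Notch2, Hey1 and Notch4, and Notch4 and Dll4.

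Promoters are shown for the receptor and the ligand with the largest differences, Notch1 and Jag1, for Notch4, which had the smallest, and for 2 further Hes and Hey genes that carry the letters of the RBPJ core. Each is the 250 bases before the RefSeq transcript start on GRCm38.p6, written 5′ to 3′ on the strand of the gene. The window of Notch1 lies wholly inside the span of the gene in the annotation used for its length. Those of Jag1, Notch4 and Hey2 overlap the span of their gene in part. The windows are chr2:26503823-26504072 (minus strand) for Notch1, chr2:137116521-137116770 (minus) for Jag1, chr17:34564045-34564294 (plus) for Notch4, chr4:154960673-154960922 (plus) for Hes5 and chr10:30842784-30843033 (minus) for Hey2. Capitals mark any of the searched motifs, on either strand. These were the RBPJ core, spelled TGGGAA. A GC box was spelled GGGCGG. The TATA box was searched as TATAAA. The binding core of TEAD factors was searched as GGAATG.
Notch1: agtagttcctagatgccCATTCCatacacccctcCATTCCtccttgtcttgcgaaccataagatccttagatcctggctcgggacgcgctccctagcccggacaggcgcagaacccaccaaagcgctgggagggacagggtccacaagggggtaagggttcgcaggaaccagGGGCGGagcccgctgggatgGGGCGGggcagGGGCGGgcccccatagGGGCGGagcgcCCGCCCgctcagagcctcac
Jag1: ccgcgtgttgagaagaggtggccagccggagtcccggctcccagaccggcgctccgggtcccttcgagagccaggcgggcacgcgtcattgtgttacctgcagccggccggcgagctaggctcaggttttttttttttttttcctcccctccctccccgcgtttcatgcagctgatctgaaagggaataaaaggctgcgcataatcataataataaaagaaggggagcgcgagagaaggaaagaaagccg
Notch4: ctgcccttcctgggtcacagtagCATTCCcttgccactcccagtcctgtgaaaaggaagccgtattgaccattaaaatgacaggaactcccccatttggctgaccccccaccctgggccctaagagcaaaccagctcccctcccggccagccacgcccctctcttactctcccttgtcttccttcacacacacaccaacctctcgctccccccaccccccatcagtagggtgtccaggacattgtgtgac
Hes5: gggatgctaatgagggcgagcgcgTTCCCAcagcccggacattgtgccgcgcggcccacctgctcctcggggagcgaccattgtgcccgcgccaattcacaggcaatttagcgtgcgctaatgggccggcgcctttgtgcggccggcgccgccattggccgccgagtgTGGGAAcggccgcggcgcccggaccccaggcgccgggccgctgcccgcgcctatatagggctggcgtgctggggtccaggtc
Hey2: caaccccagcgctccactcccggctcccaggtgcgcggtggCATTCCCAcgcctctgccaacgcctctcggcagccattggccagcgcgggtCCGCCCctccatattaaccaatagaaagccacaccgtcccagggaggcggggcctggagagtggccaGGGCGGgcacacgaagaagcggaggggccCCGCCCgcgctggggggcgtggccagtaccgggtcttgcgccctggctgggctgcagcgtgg

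The RefSeq table held windows for 8 of the 10 genes, 9 windows in all since Dll1 has 2, and Hes1 and Hey1 were not matched. None of the 9 windows held the RBPJ core, which 21.6% of all 32851 windows held. A GC box was found in 5 of the 9 windows, in Notch1, Notch2, Notch3, Jag2 and Dll4, against 32.7% of all windows. Notch1 held 5 such boxes within 78 bases of the start, whereas Jag1 and Notch4 held none. The TEAD core was found in 2 of the 9 windows, Notch1 and Notch4, against 12.6% of all windows, and no window held the TATA box, against 12.4%. CG dinucleotides ranged from 4 in Notch4 to 54 in Jag2, with a median of 6 over all windows, and Notch1 and Jag1 held 16 and 20. Of the 52 windows of the other pathway genes 14 held the RBPJ core. In Hes5 it begins 226 and 82 bases before the start, and in Hey2 it begins 207 bases before the start and overlaps a TEAD core. A match of letters is a description of the window and shows no binding.

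Among the receptors, the largest difference was that of Notch1, the receptor best known for its role in epidermal differentiation. Notch1 lies on the minus strand of chromosome 2 of mm10, from 26457903 to 26516663, with 34 exons in its longest transcript. It had 4092 counts in the control and 1631 in the stretched library, or 289 and 140 CPM. Stretched skin thus held 48.4% of the control level, a log2 fold change of -1.05 (interval -1.13 to -0.96). With 1 added to each FPKM, a choice made here, the value was -0.98, just short of the threshold of 2-fold. With nothing added to the FPKM, Notch1 was called lower, against 2.85% of all genes that passed the filter. Exons of 0610009E02Rik and Gm13568 on the opposite strand cover 9.76% of its exonic bases. The use of strand in the counting is not given in the sources used here, so reads from such antisense transcripts cannot be told apart from those of the gene.

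Notch2 and Notch3 differed less than Notch1. Notch2 (chromosome 3, 98013527 to 98150361), a receptor expressed in many tissues, had 2200 counts in the control and 1439 in the stretched library, or a log2 fold change of -0.33 (interval -0.43 to -0.24). Notch3 (chromosome 17, 32120820 to 32166852), known from the mural cells of blood vessels, had 2264 and 1408 counts, with a log2 fold change at -0.40 (interval -0.50 to -0.31). The ratio of their counts was 0.972 (control) and 1.02 (stretched), and the interval of the difference (log2 0.07, -0.06 to 0.21) included 0. Notch4 (chromosome 17, 34564268 to 34588503), known from endothelial cells, had 155 counts in the control and 122 in the stretched library. Its log2 fold change of -0.06 had an interval from -0.42 to 0.29, and its sign turned with the scaling (up to 0.05 with median of ratios), so no difference was detectable at its depth.

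A ratio of 2 genes within a library does not depend on how the libraries are scaled. The pairs given here and further on were chosen after their values were seen. There were 1.86 counts of Notch1 for each of Notch2 in the control library against 1.13 in the stretched one, a log2 difference of -0.71 (interval -0.84 to -0.59). Against Notch3 the log2 difference was -0.64 (interval -0.77 to -0.51), and against Notch4 it was -0.98 (interval -1.34 to -0.62). The difference of Notch1 was thus larger than that of each other receptor by more than counting error in these libraries. Of the summed FPKM of the 4 receptors, Notch1 made up 36.4% (interval 35.4 to 37.3) in the control library and 26.2% (25.0 to 27.4) in the stretched one. Notch3 went from 35.4% to 39.8%, Notch2 from 25.8% to 30.5% and Notch4 from 2.43% to 3.46%. With the length of the longest transcript Notch1 made up 45.6% and 34.2%, and in stretched skin it then stood above Notch2 (27.2%) and beside Notch3 (34.9%), with overlapping intervals for the last pair. The summed count of the 4 receptors was 8711 and 4600 (log2 fold change -0.64, interval -0.69 to -0.59).

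Among the ligands, Jag1 had the largest difference, although not beyond counting error against each of the others. It lies on the minus strand of chromosome 2, from 137081456 to 137116644, and encodes a Jagged ligand with known roles in the hair follicle. It had 2110 counts in the control and 829 in the stretched library, or 149 and 71.2 CPM. Its level in stretched skin was 47.7% of that in control skin (log2 fold change -1.07, interval -1.18 to -0.95), and -1.01 with 1 added to each FPKM. Jag2 (chromosome 12, 112907819 to 112929776), the other Jagged ligand, had 2256 and 1356 counts, with a log2 fold change at -0.45 (interval -0.55 to -0.36). The counts of Jag1 for each of Jag2 went from 0.935 to 0.611 (log2 difference -0.61, interval -0.77 to -0.46).

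The Delta ligands were measured on fewer counts. Dll1 (chromosome 17, 15367354 to 15376872) had 297 counts in the control and 149 in the stretched library, or a log2 fold change of -0.71 (interval -1.01 to -0.43). Exons of A930024N18Rik on the opposite strand cover 20.6% of its exonic bases, so its value is uncertain. Dll4 (chromosome 2, 119325784 to 119335962), a ligand of arterial and sprouting endothelium, had 97 and 54 counts, a log2 fold change of -0.56 (interval -1.07 to -0.07). With scaling by TMM, median of ratios or upper quartile the interval of Dll4 included 0. The interval of Jag1 against Dll4 (log2 difference -0.50, -1.01 to 0.02) included 0, and that of Jag1 against Dll1 (-0.35, -0.67 to -0.04) did not. Of the summed FPKM of the 4 ligands, Jag1 made up 46.3% (interval 44.9 to 47.8) in the control library and 36.8% (34.9 to 38.8) in the stretched one. Jag2 went from 41.4% to 50.4%, while Dll1 (9.01% and 9.14%) and Dll4 (3.22% and 3.63%) kept shares whose intervals overlapped. Jag1 was the leading ligand in control skin and Jag2 in stretched skin, an order that rests on the gene length. With the length of the longest transcript, Jag2 led in both libraries (47.7% and 56.6%).

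**Figure D2:**
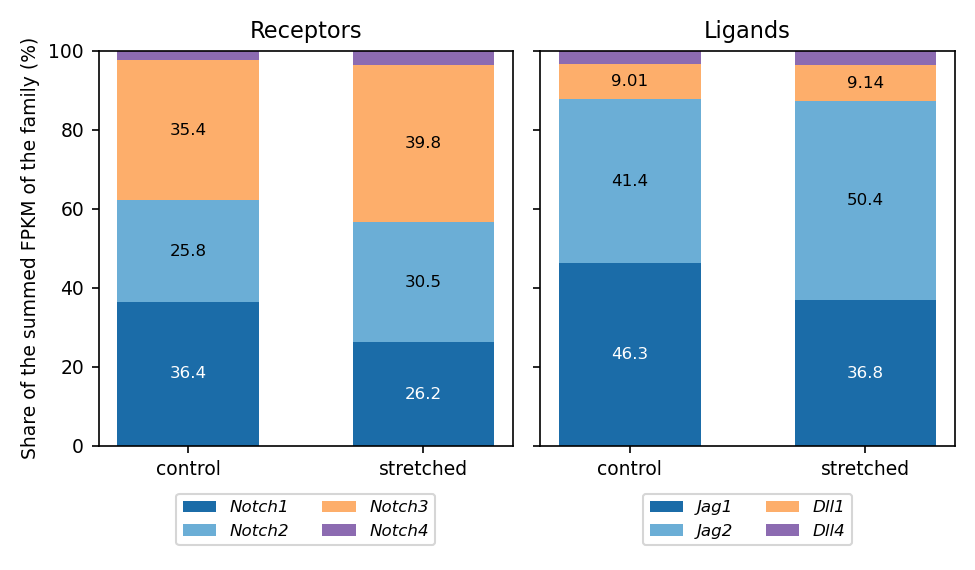
Share of each gene in the summed FPKM of the 4 receptors (left) and the 4 ligands (right), in percent, for the control and the stretched library. The share of Notch1 was 36.4% and 26.2%, and that of Jag1 was 46.3% and 36.8%.

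The ratio of Notch1 to Jag1 was close in both libraries, with 1.94 counts of Notch1 for each of Jag1 in the control and 1.97 in the stretched library (log2 difference 0.02, interval -0.12 to 0.17). For Notch2 and Jag2 the ratio was 0.975 and 1.06 (log2 difference 0.12, interval -0.02 to 0.26). For the pair known from endothelium, the ratio moved from 155 counts of Notch4 against 97 of Dll4 to 122 against 54, with an interval that included 0 (log2 difference 0.50, -0.12 to 1.12).

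Hes1 and Hey1 encode basic helix-loop-helix repressors that are direct targets of the pathway. Hes1 (chromosome 16, 30064384 to 30067796) had 800 counts in the control and 427 in the stretched library, or 56.5 and 36.7 CPM, a log2 fold change of -0.62 (interval -0.80 to -0.45). Hey1 (chromosome 3, 8663359 to 8667256) had 101 and 68 counts, and with a log2 fold change of -0.29 (interval -0.76 to 0.17) no difference was detectable at its depth. The interval of Hes1 against Hey1 (log2 difference -0.34, -0.83 to 0.16) included 0.

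**Figure D3:**
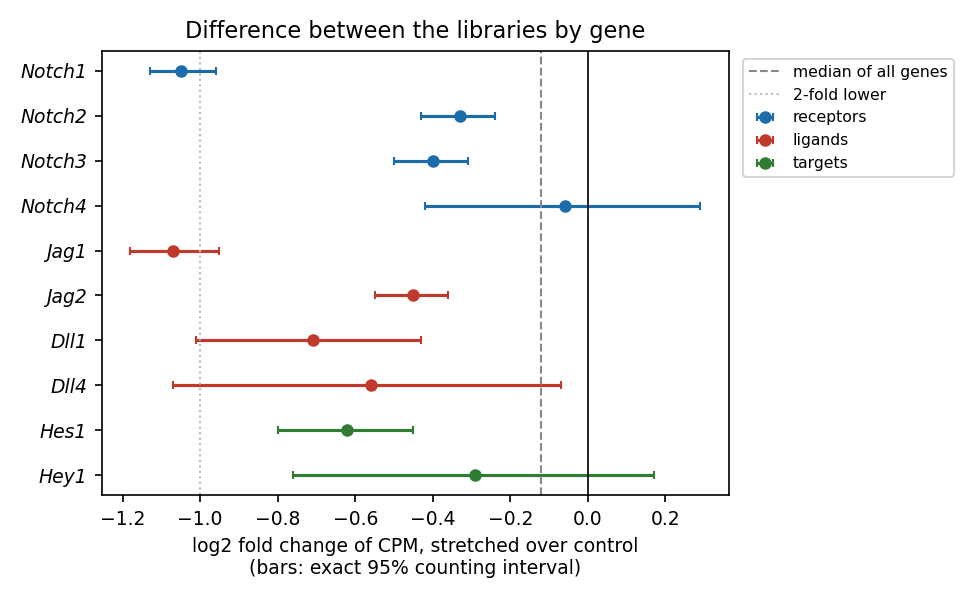
Log2 fold change of CPM in stretched over control skin for the 10 genes, with exact 95% counting intervals as bars, colored by role. The intervals of Notch1 and Jag1 reach from -1.13 to -0.96 and from -1.18 to -0.95, below those of Notch2, Notch3 and Jag2, and the dashed line marks the median of all genes (-0.12).

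The rest of the pathway centered near 0. Of 51 other genes, listed by function, 47 had a fold change, with a median of -0.03 (0.04 to 0.08 with the other scalings), 28 lower and 19 higher. The interval lay below 0 for 18 of the 47 and above 0 for 11, against 33.5% and 18.1% of all genes above 3 counts, and of the 38 that passed the EV filter none was called, where 2.43% of all genes that passed were called lower and 2.61% higher. The 10 proteases that cut the receptors, among them Adam10, Adam17 and the subunits of gamma-secretase, had a median of 0.05 and ranged from -0.41 (Aph1b, a gamma-secretase subunit) to 0.28. Of the 76-base stretches, 12.4% in Aph1b, 12.5% in Aph1c, 18.55% in Psenen and 36.9% in Aph1a occur in another gene too. The values of these genes are thus uncertain, and their counts are part of the protease sum used below. Furin, which cleaves the receptor precursor, was the one protease with an interval above 0 (0.18, 0.09 to 0.27). Those with an interval below 0 were 2, Adam10 (-0.19, -0.31 to -0.08) and Aph1b. Set against the summed counts of these proteases the 4 receptors were lower by a log2 difference of -0.67 (interval -0.74 to -0.61), the 4 ligands by -0.75 (-0.83 to -0.67) and the 2 targets by -0.62 (-0.78 to -0.45).

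The nuclear partners went both ways. Rbpj, the DNA-binding partner of the receptors, had 1317 counts in the control and 1379 in the stretched library, or a log2 fold change of 0.35 (interval 0.24 to 0.46). Its value was higher, and Notch1 went from 3.11 to 1.18 counts for each of Rbpj (log2 difference -1.39, interval -1.53 to -1.25). Maml3, a Mastermind coactivator, had 473 and 226 counts, with a log2 fold change at -0.78 (interval -1.02 to -0.55). The 11 nuclear factors and corepressors had a median of -0.24, with 6 intervals below 0 and 1 above, where genes with at least 100 counts had 40.2% below and 20% above.

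Genes that modify receptors and ligands, and the further ligands, differed in both directions. Of the 5 glycosyltransferases (median 0.16), Lfng, which adds sugars that alter the response to Jagged and Delta ligands, had 633 and 367 counts (-0.51, interval -0.70 to -0.32), and Rfng, of the same family, had 399 and 380 (0.21). Of the 4 genes for ligand endocytosis (median -0.12), the ubiquitin ligase genes Neurl1a and Neurl1b stood at 0.68 (interval 0.51 to 0.84) and -0.46 (-0.75 to -0.17). Of the other ligands, Dlk1 had 72 and 130 counts (1.13, interval 0.71 to 1.57), Dlk2 and Dner had intervals that included 0, and Dll3 had 0 counts in both libraries, and the limit of 3 counts set for a count of 0 is 0.212 CPM in control and 0.258 CPM in stretched skin.

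Nrarp and 4 of the 5 other Hes and Hey genes with a fold change had lower values in stretched skin, and Hes6 and Dtx1 had higher ones. Nrarp, which encodes a feedback inhibitor induced by Notch, had 1661 counts in the control and 820 in the stretched library (-0.74, interval -0.86 to -0.62). Exons of Gm38287 on the opposite strand cover 79.4% of its exonic bases, so its value is uncertain. Among the 8 other Hes and Hey genes 5 had a fold change, with a median of -0.82, and 3 of the 5 intervals lay below 0 and 1 above, beside 33.5% and 18.1% of all genes above 3 counts. Hes2 had 114 and 34 counts (-1.46, interval -2.06 to -0.90), and Hes6, which counteracts Hes1, had 184 and 223 (0.56, interval 0.27 to 0.85). Heyl, Hey2 and Hes5 were singled out after their values were seen. Heyl had 610 and 290 counts (-0.79, with the interval below 0) and Hey2 had 73 and 34 (-0.82, interval -1.45 to -0.22). Hes5 had 14 and 4 counts, and its interval (-3.59 to 0.14) included 0. Exons of Gm20421 on the opposite strand cover 31.8% of its exonic bases, which makes it uncertain too. Hes3, Hes7 and Helt had 3 counts or fewer in both libraries. Of the 9 negative regulators, which had a median of -0.03, Dtx1, a Deltex gene that is itself induced by Notch in other tissues, was the highest with 42 and 83 counts (1.26, interval 0.71 to 1.84).

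**Figure D4:**
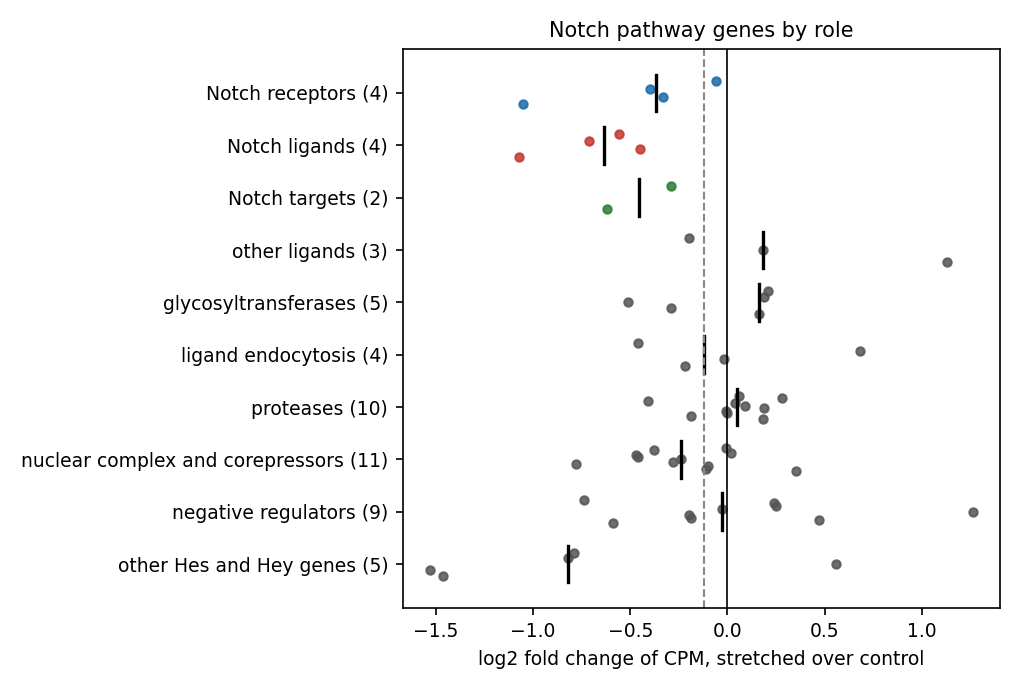
Log2 fold change of CPM in stretched over control skin for the Notch receptors, ligands and targets (colored) and for the other genes of the pathway by role (grey). Each point is 1 gene, the short bars are medians, the number of genes with a fold change is in brackets and the dashed line is the median of all genes. The medians of the receptors (-0.37), ligands (-0.64), targets (-0.46) and other Hes and Hey genes (-0.82) lie left of the dashed line. Notch4 and Hes6 lie to the right of it. The proteases center at 0.05.

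Notch genes are expressed by different cells of the skin, and marker genes of those cells were measured in the same libraries. No marker gene of the 11 lists was at 0 in either library, and the keratinocyte genes Krt5 (61216 and 50601 counts) and Krt10 (63504 and 53008) were among the most counted of them. The counts of intervals given for these lists stand beside 33.5% below and 18.1% above 0 for all genes with more than 3 counts, and 40.2% and 20% for those with at least 100. The 6 basal keratinocyte genes had a median of 0.11, with 3 intervals above 0 and 2 below, and summed to 8540 CPM in the control and 9220 in the stretched library. The 8 suprabasal keratinocyte genes had a median of 0.05 (-0.02 with correction for GC content or length), with 5 intervals above 0 and 3 below, and summed to 9940 and 9910 CPM. The value of Notch1 lay 1.16 and 1.10 log2 units below these medians, and that of Jag2 lay 0.56 below the first. Single genes of these lists were also lower, among them the desmosomal gene Dsc1 (-1.16), Flg2 (-0.87), Ivl (-0.53) and Trp63 (-0.49), which were named after their values were seen.

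The hair matrix and shaft genes were lower in stretched skin, and the bulge genes were mixed. All 19 genes of the hair matrix and shaft had intervals below 0, with a median of -2.50, and their sum was 15300 CPM in the control and 2560 in the stretched library. They made up 1.53% of the counts of the control library and 0.256% of those of the stretched one. The methods place the hair of the animals in the resting phase, and the hair cycle stage of the 2 libraries was not tested. Krt35, a hair cortex keratin, had 6503 and 977 counts. The 7 bulge follicle genes had a median of -0.46, with 5 intervals below 0 and 2 above, and summed to 1730 and 1410 CPM. Krt15, which marks bulge cells, had 15280 and 9127 counts (-0.46), while Nfatc1, a regulator of bulge stem cells named here after its value was seen, had 826 and 1090 (0.68). Notch1, Jag1 and Hes1 were lower by less than the hair matrix and shaft genes, with values 1.45, 1.43 and 1.88 log2 units above the median of that list. Jag1 lay below the median of the bulge list (a difference of -0.61). The part of follicle content in the lower Notch1, Jag1 and Hes1 was not tested.

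Markers of blood vessels differed in both directions. The 12 endothelial genes had a median of 0.41, with 7 intervals above 0 and 1 below, and summed to 390 CPM in the control and 523 in the stretched library. Cdh5, an endothelial cadherin, had 709 and 866 counts and Pecam1 had 851 and 988, whereas Kdr, a VEGF receptor named here after its value was seen, had 442 and 281 (-0.37). For each count of these 12 genes, Dll4 was lower in stretched skin by a log2 difference of -0.99 (interval -1.50 to -0.49), Hey1 by -0.71 (-1.18 to -0.25) and Notch4 by -0.49 (-0.85 to -0.13). The 5 arterial genes had a median of 0.50, with 3 intervals above 0 and 1 below, but summed to 136 and 103 CPM, of which Efnb2, an ephrin of arteries, made up 121 and 81.3, so that the other 4 together were higher. The 10 mural genes had a median of 0.09, with 4 intervals above 0, 3 below and 3 that included 0, and summed to 950 and 1060 CPM. Within that list Pdgfrb stood at 0.93 and Rgs5 at 0.08. Notch3 was lower relative to their sum by -0.56 (interval -0.66 to -0.45).

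Other tissue components also differed. The 12 macrophage genes had a median of 1.34, with 11 intervals above 0 and none below, and went from 947 to 2240 CPM in sum, with Adgre1 at 472 and 1148 counts. The 8 fibroblast genes had a median of 0.30, all with intervals above 0, and went from 42100 to 78500 CPM. Of the 14 skeletal muscle genes, with a median of -0.36, 10 had an interval below 0 and 4 above (30800 and 23300 CPM), and Acta1 had 127849 and 100096 counts, or -0.07 on the log2 scale of CPM. The muscle genes farthest apart, named after their values were seen, were the myosin genes Myh4 (-4.57) and Myh2 (1.46). The 8 myogenic genes had a median of 1.32, with 6 intervals above 0 (63.7 and 189 CPM), and Myog had 174 and 447 counts. The part of these differences in the values of the Notch genes was not tested.

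**Figure D5:**
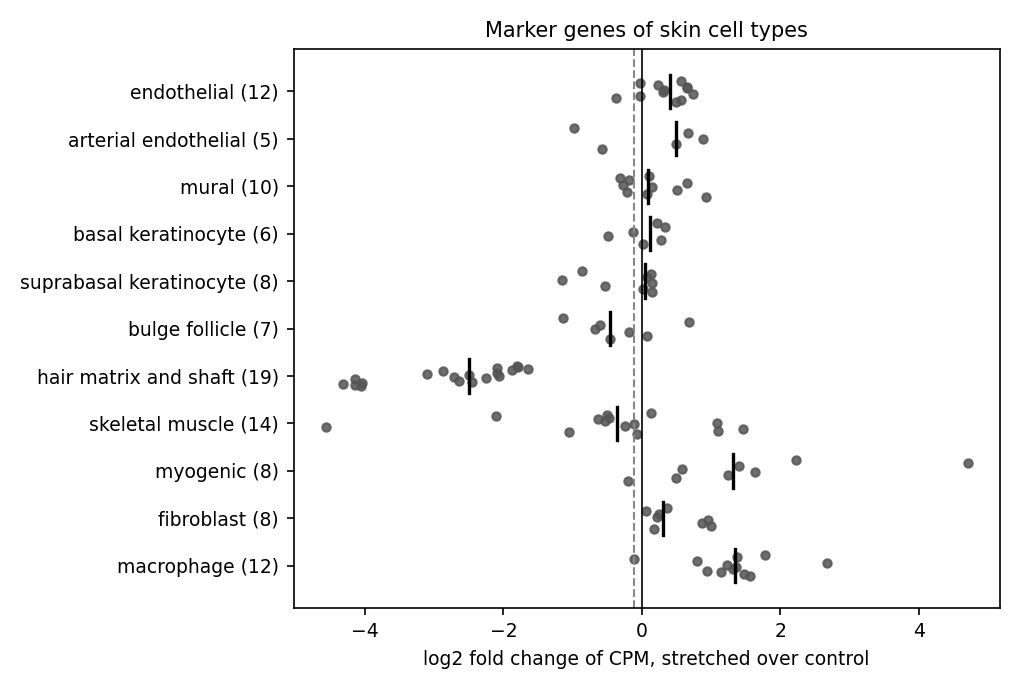
Log2 fold change of CPM in stretched over control skin for marker genes of skin cell types. Each point is 1 gene, the short bars are medians, the number of genes is in brackets and the dashed line is the median of all genes. The 19 hair matrix and shaft genes lie to the left of 0 (median -2.50), the endothelial genes center at 0.41 and the macrophage genes at 1.34.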

How the data were processed

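RNA-seq was performed on 1 library of stretched and 1 library of control skin. Per the methods, reads were filtered with the FASTX-Toolkit and mapped to mm10 with TopHat2. The study's FPKM came from Cufflinks, which was not run here. The authors deposited raw counts of reads per gene symbol, not normalized. The counting program, its annotation and its use of strand are not given in the sources used here.

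Each count was divided by the total of its library to give CPM, and FPKM used the union of exons in GENCODE M21, which gave a length for 98.5% of 24421 genes (23376 by name and 678 by synonym). The interval of a fold change of CPM is the exact 95% Clopper-Pearson interval of the stretched share of the counts, and counts of 3 or fewer (0.212 and 0.258 CPM) were set to 3. Ratios of 2 genes carry the conditional exact interval of the odds ratio, and intervals of FPKM shares are binomial intervals of the count share carried to FPKM. Calls used EV above 10, a fold of 2 and 1 added to each FPKM. The added 1 was a choice made here, since the methods state no pseudocount. No p-value is given, and the edgeR and DESeq2 tests were not run because there are no replicates.

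The 10 genes are those of the stated list. Other pathway genes named are mainly the largest rise and fall per role with an interval beyond 0. Adam10 and Adam17 are named as examples of the proteases, the value of Adam10 after it was seen. Aph1a, Aph1c and Psenen are named for their shared stretches. Dlk2, Dner, Dll3, Hes3, Hes7 and Helt complete their lists. Markers are named from a fixed set, except where the text says that a gene was named after its value was seen. Members and lists were chosen with earlier results of these data known. With 2 libraries every gene has 1 ratio, so no gene is named for a similar pattern. Other scalings were TMM and upper quartile from edgeR 4.0.16, median of ratios from DESeq2 1.42.0 and totals that leave out the 50 genes with the most counts. Further alternatives were 1 CPM added, a minimum of 20 counts, pseudocounts of 0 and 0.1, the EV filter at 100 or absent, CPM used for FPKM, the longest transcript, and correction for GC content or length in 20 bins. The intervals and calls were also run on simulated counts with counting error only. That run checks the computation and holds no variation between animals. Python 3.11.15, scipy 1.17.1 and R 4.3.3 were used.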

Additional observations from a re-analysis of the deposited data

How the results depend on the processing

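Each other scaling moved all log2 fold changes by a constant, which was 0.10 for TMM and for upper quartile, 0.11 for median of ratios and 0.06 when totals left out the top 50 genes. The median of the 10 genes ranged from -0.60 (correction for GC content) to -0.40 (median of ratios). Under the 7 alternatives run on single genes, 9 of the 10 kept their sign, and Notch4 ranged from -0.16 to 0.05. Notch1 ranged from -1.14 to -0.92 and Jag1 from -1.06 to -0.96. Intervals below 0 were found for 7 genes in TMM, upper quartile and median of ratios and for 8 when the top 50 genes were left out of totals. The shares of all genes (33.5% and 40.2%) are given for scaling by library total only, so these counts have no background. The number of the 10 genes called lower was 1, against 2.43% of all genes that passed the filter, and lies at the threshold. In the scaling alternatives it was 0 (TMM), 0 (median of ratios), 0 (upper quartile) and 0 (top 50 genes left out). The shares of all genes called lower there were 2.0%, 1.99%, 2.0% and 2.1%. It was 2 (Notch1 and Jag1) with a pseudocount of 0, 2 with 0.1 and 2 with CPM in place of FPKM. These settings called 2.85%, 2.81% and 3.25% of all genes lower. None was called higher in these alternatives, against 2.85% to 3.36% of all genes that passed. The share of Notch1 among the receptors was different by -10.2 percentage points in stretched skin (-11.4 with the longest transcript and -11.5 by counts), and that of Jag1 among the ligands by -9.5 (-9.1 and -9.61). The median of the other pathway genes, -0.03, ranged from -0.10 to 0.08 and changed sign with the 4 scaling alternatives. The median of the suprabasal keratinocyte genes turned to -0.02 with correction for GC content and -0.02 with correction for length. Leaving out Dll1, of which 13.6% of the 76-base stretches occur in other genes, gave a median of -0.45 for the Notch genes, an alternative chosen after seeing the data. The background over genes with at least 100 counts and the ratios within a library were also chosen after seeing the data. No paired analysis was possible because each condition has only 1 library. For the same reason none could be omitted in turn. Depth limits Notch4, Dll4 and Hey1 most.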
